A study of Mus musculus with 8 samples.

Results

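The genes described here encode the enzymes that make cholesterol, the proteins that sense it and the proteins that move it within the cell. Of 28 genes chosen by name, 26 had at least 1 probe set on the array annotated to that symbol alone, out of 18193 genes measured this way. Acat2 and Soat1 were not analysed here. Where a gene had several probe sets, the one with the highest average signal was used. Expression was measured on Affymetrix mouse arrays in bone marrow-derived macrophages, grown from marrow for 7 to 10 days with macrophage colony-stimulating factor at 10 ng/mL. The 4 groups, of 2 arrays each, were Tpl2 wild type unstimulated, Tpl2 wild type treated with LPS from Escherichia coli (1 μg/mL), Tpl2 deficient unstimulated and Tpl2 deficient treated with LPS. LPS is a bacterial ligand of toll-like receptor 4, and Tpl2 is the kinase encoded by Map3k8 that carries this signal to MEK and ERK. The labels give neither strain, age, sex nor the time of LPS treatment of these arrays, nor how the Tpl2 allele was made.

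Cells make cholesterol from acetyl units. The mevalonate arm of the pathway builds isoprene units and joins them to farnesyl diphosphate, and the sterol arm makes squalene from it, closes the rings and trims the product to cholesterol. When membranes of the endoplasmic reticulum are low in sterol, SCAP escorts the transcription factor SREBP-2 to the Golgi, where proteases release it to switch on most of these genes; INSIG proteins hold SCAP back when sterol is plentiful. Macrophages also take in cholesterol from outside, export it from lysosomes through NPC2 and NPC1, store it as esters and hydrolyse those esters again.

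The cells carried the macrophage markers their label implies. Csf1r lay between 14.42 and 14.80 and Adgre1 between 13.39 and 13.91 (log2 signal) in the 8 arrays, and all 8 macrophage markers were above the array median in every group. Of 28 measured markers of other cells, the neutrophil and monocyte gene S100a8 had the highest mean level, 8.42 to 8.93 in unstimulated and 8.91 to 10.27 in LPS-treated arrays. Pdgfrb, on the stromal list and singled out after its values were seen, was at 4.61 to 5.82 without and 8.88 to 10.25 with LPS. The rest of that list did not follow it. Group means of Col1a1 and Col1a2 were lower with LPS in both genotypes and those of Dcn slightly higher. Col3a1 went from 5.14 to 5.19 in wild-type and from 5.69 to 4.97 in Tpl2-deficient cells. The unstimulated Tpl2-deficient arrays stood apart for Col1a2 (8.88 and 7.68), Col3a1 (6.56 and 4.82) and Pdgfrb (5.82 and 4.61). The part of these markers in the results below was not tested. Map3k8, the targeted gene, was 2.00-fold lower in Tpl2-deficient cells both without LPS (adjusted p = 0.00237) and with it (adjusted p = 0.000125, limma). It read 9.27 and 9.28 in the unstimulated wild-type arrays and 8.32 and 8.23 in the deficient ones. No member's group mean fell under the array medians (at most 6.53), the lowest being Dhcr7 at 7.21. Changes below are log2 differences of group means ± standard error, estimated in limma with the 8 arrays together; p-values were adjusted by Benjamini-Hochberg across the 18193 genes, and a gene passed at an adjusted p under 0.05. Arrays carry no read depth, so their number limits the precision. Fewer cells and less RNA per cell cannot be told apart in such bulk samples.

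**Figure D1:**
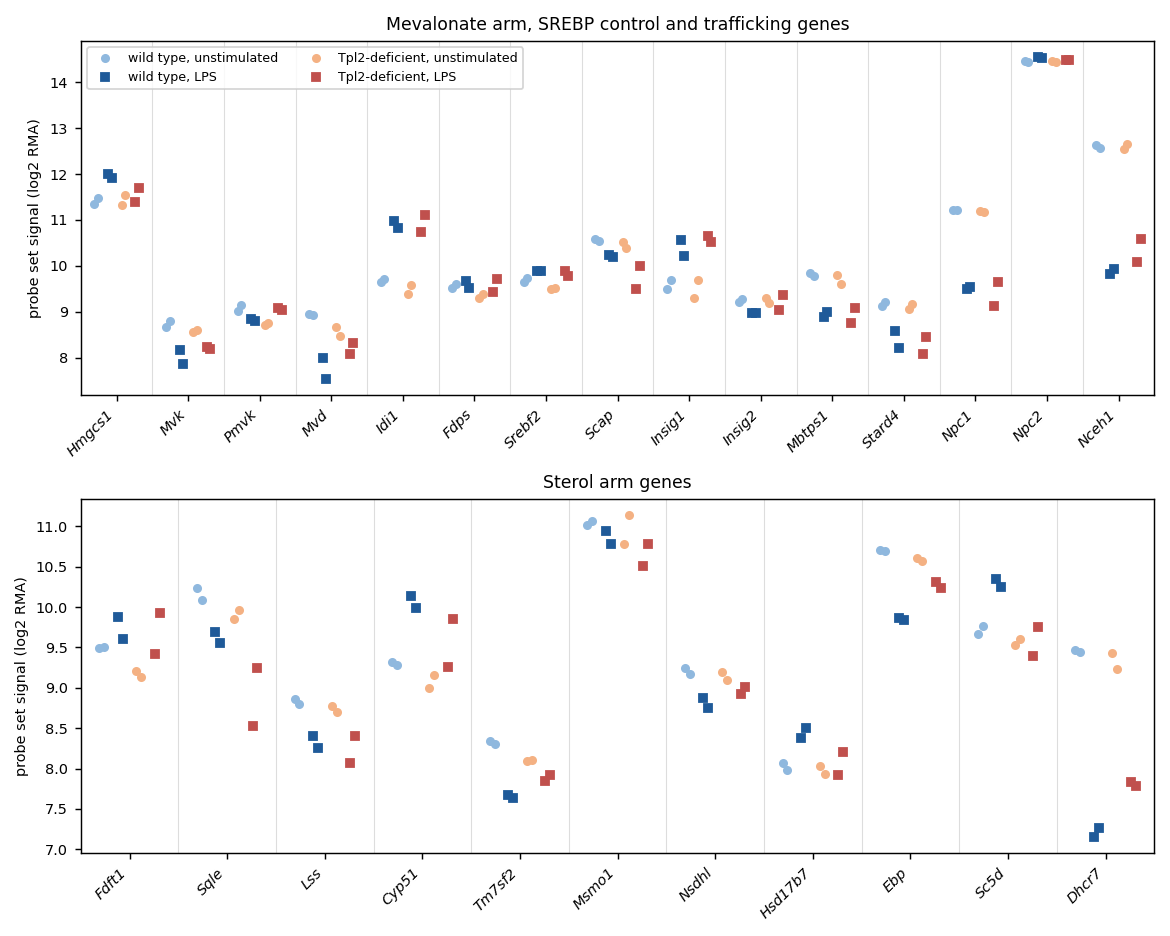
Log2 RMA signal of each measured member in each of the 8 arrays, 2 points per group (light circles, unstimulated; dark squares, LPS treated; blue, wild type; orange and red, Tpl2 deficient). Levels are not comparable between genes; Nceh1, Npc1 and Dhcr7 lie lower in every LPS-treated array than in any unstimulated one, and Idi1 higher.

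The first comparison asks what LPS does to these genes in wild-type macrophages. LPS moved the members in both directions, as it did genes in general. Idi1 (isoprene isomerisation), the entry enzyme Hmgcs1 and the brake Insig1 rose. So did the sterol-trimming enzymes Cyp51, Hsd17b7 and, on the probe set used but not on every one, Sc5d. The terminal reductase Dhcr7, most other enzymes and the trafficking genes Npc1 and Nceh1 fell. Of 26 members, 6 rose and 13 fell, and 7 did not pass. Among all genes 52.2% passed, 21.3% upward and 30.9% downward, so the share of members that rose was close to that of all genes. The members' median change was -0.31 against 0.04 for all genes. With quantile normalization repeated, 8 members rose and 9 fell, against 3959 and 5174 of all 18193 genes. Centring the arrays on their hybridisation spike-ins shifts the median of all genes by -0.14 here and by -0.21 in Tpl2-deficient cells. It left 5 members rising and 15 falling, against 2091 and 6252 of all genes, and Hsd17b7 no longer passed. The log2 difference between 3′ and 5′ Actb control probe sets, a sign of RNA quality, was 0.81 and 0.67 without and 0.46 and 0.55 with LPS in wild-type arrays, and 0.87 and 0.90 without and 0.61 and 0.68 with LPS in Tpl2-deficient ones; its part in the LPS changes was not tested.

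In the mevalonate arm, Hmgcs1, the HMG-CoA synthase that begins the committed route, was at 11.34 and 11.48 without and 11.99 and 11.91 with LPS. Both treated arrays lay above both untreated ones, a rise of 0.54 ± 0.13 (adjusted p = 0.00428). Idi1, which isomerises isopentenyl diphosphate, went from 9.65 and 9.70 to 10.98 and 10.82, a 2.34-fold rise that was the largest among the members. The 3 measured members that act between them all fell. Mvd, the decarboxylase that makes isopentenyl diphosphate, went from a mean of 8.93 ± 0.02 to 7.77 ± 0.33 (SD, n = 2), a 2.23-fold fall. Mevalonate kinase, Mvk, fell 1.65-fold (adjusted p = 0.000367) and phosphomevalonate kinase, Pmvk, 1.21-fold (adjusted p = 0.0373). The Pmvk call was lost under 8 alternatives, 6 of which leave out 1 array from the unstimulated groups or the wild-type LPS group. Fdps, which joins the isoprene units to farnesyl diphosphate, did not pass (0.04 ± 0.12).

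In the sterol arm, Dhcr7, the reductase of the last step, went from 9.47 and 9.44 to 7.15 and 7.26, a 4.76-fold fall (adjusted p = 1.41e-08). The groups lay far apart and the arrays of each group close together. Ebp, a sterol isomerase acting shortly before it, fell 1.81-fold, from 10.70 in both arrays to 9.86 and 9.84. Falls of 1.31- to 1.59-fold were seen for the sterol reductase Tm7sf2, the squalene epoxidase Sqle, the lanosterol synthase Lss and the dehydrogenase Nsdhl. The lanosterol demethylase Cyp51 rose 1.70-fold, from 9.32 and 9.28 to 10.14 and 9.98. Sc5d, the desaturase that feeds Dhcr7, rose 1.49-fold on the probe set used, and the keto-sterol reductase Hsd17b7 1.34-fold. Squalene synthase (Fdft1, 0.23 ± 0.15) and the methyl sterol oxidase Msmo1 (-0.18 ± 0.14) did not pass. The Sqle call was lost without any 1 of the wild-type arrays, the Nsdhl call without unstimulated replicate 1 or LPS replicate 2, and the Hsd17b7 call without replicate 2 of either wild-type group.

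Among the genes that control SREBP-2, Insig1, itself a target of the factor it restrains, went from 9.50 and 9.68 to 10.56 and 10.22 (0.80 ± 0.15, adjusted p = 0.000973). Mbtps1, the protease that makes the first cut in SREBP-2, fell 1.82-fold. Srebf2, which encodes the factor, Scap and Insig2 did not pass (0.20 ± 0.10, -0.34 ± 0.15 and -0.27 ± 0.12). Of 4 trafficking genes, Nceh1, Npc1 and Stard4 fell on the probe sets used, but Stard4 probe set 1429239_a_at rose by 0.51. Nceh1, which hydrolyses cholesterol esters, was at 12.64 and 12.58 without and 9.83 and 9.94 with LPS, a 6.59-fold fall. Npc1, the lysosomal cholesterol exporter, went from 11.22 and 11.21 to 9.49 and 9.55, a 3.24-fold fall. Npc2, which hands cholesterol to Npc1, did not pass on the probe set used, with a difference of 0.10 whose 95% interval ran from -0.11 to 0.30. The mean of its 4 probe sets rose by 0.32 and passed (adjusted p = 0.0107, limma).

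**Figure D2:**
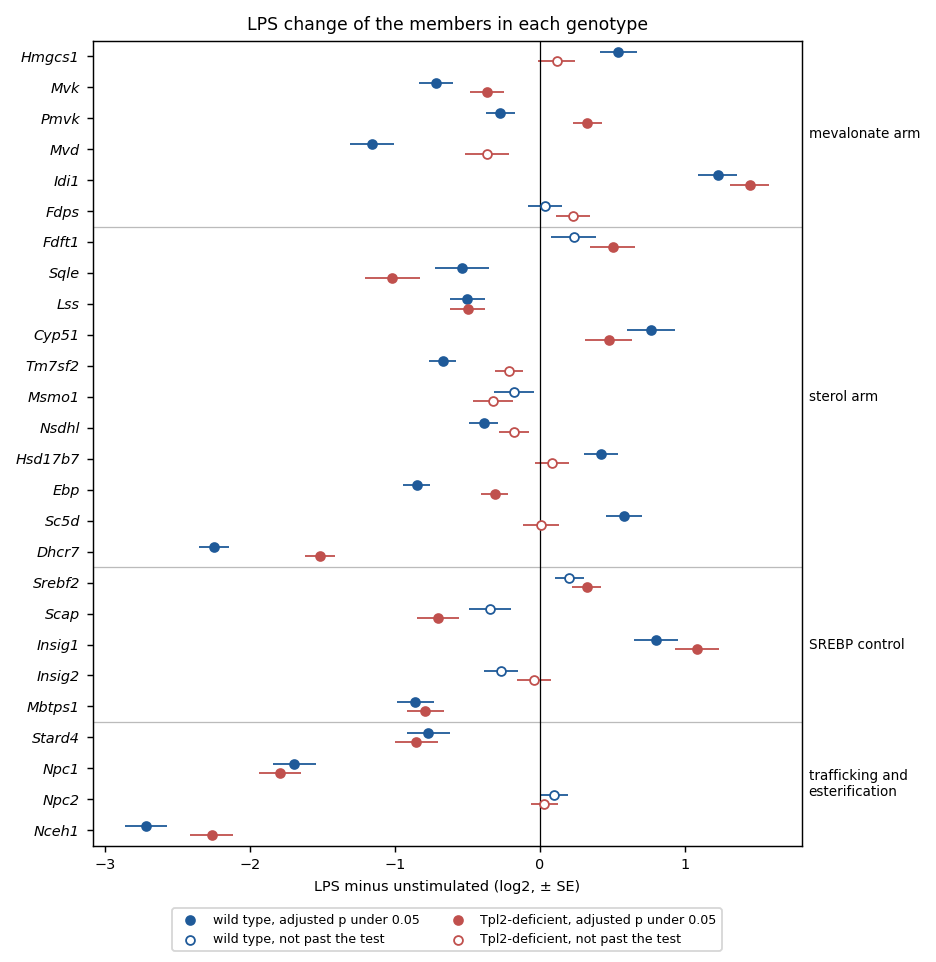
LPS change (log2, LPS minus unstimulated, ± SE from limma, 2 arrays per group) of the 26 measured members in wild-type (blue) and Tpl2-deficient (red) macrophages, in pathway order; filled points passed the adjusted threshold of 0.05. Nceh1, Dhcr7 and Npc1 lie farthest to the left in both genotypes and Idi1 and Insig1 farthest to the right.

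The next comparison asks what LPS does in Tpl2-deficient macrophages. Nceh1, Npc1 and Dhcr7 again fell most and Idi1 and Insig1 rose most. Of 26 members, 6 rose and 10 fell, where 41.8% of all genes passed, 16.0% upward and 25.8% downward. The members' median was -0.20 and that of all genes 0.00. With spike-in centring, 1795 of all 18193 genes rose and 6380 fell, so that setting moved genes in general downward. Only 2 members still rose and 14 fell with spike-in centring. Calls lost without an unstimulated Tpl2-deficient array are given below. The LPS-treated Tpl2-deficient arrays were further apart than the arrays of other groups. Of 26 members, 20 were higher in its replicate 2 than in its replicate 1, by a median of 0.30, while 47.8% of all genes were higher there. In the wild-type LPS group 6 of 26 members were higher in replicate 2, with a median of -0.09, against 49.5% of all genes. The median SD of a member between the 2 arrays was 0.21 in the LPS-treated Tpl2-deficient group and 0.05 to 0.08 in the others. Over all genes it was 0.13 in that group and 0.065 to 0.066 in the others. Since the fit assumes one spread, standard errors for the LPS-treated Tpl2-deficient group may be too small. Without replicate 2 of the LPS-treated Tpl2-deficient group the LPS change was -1.38 for Sqle and 0.25 for Fdft1. Without its replicate 1 the changes were -0.66 and 0.75. What sets the arrays apart was not tested.

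**Figure D3:**
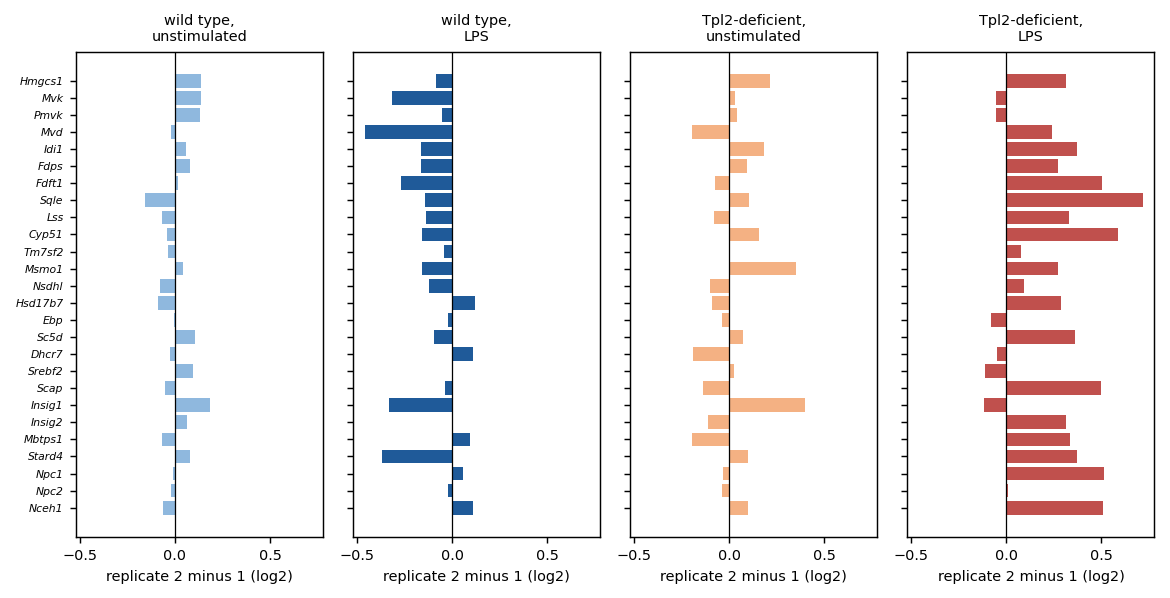
Replicate 2 minus replicate 1 (log2 signal) of each measured member in each of the 4 groups. In the LPS-treated Tpl2-deficient group 20 of 26 bars point to the right, the longest being Sqle, while the other groups have 6, 12 and 14.

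Nceh1 went from 12.56 and 12.65 to 10.08 and 10.59 (4.82-fold lower) and Npc1 from 11.19 and 11.16 to 9.12 and 9.64 (3.47-fold lower). Every treated array was below every untreated one. Dhcr7 fell 2.87-fold, from 9.43 and 9.24 to 7.84 and 7.79. Sqle fell 2.03-fold, from 9.86 and 9.96 to 8.53 and 9.25, the treated arrays standing 0.72 apart. Scap, the sterol sensor, fell 1.63-fold (adjusted p = 0.002) and Mbtps1 1.73-fold. Idi1 rose 2.73-fold, from 9.39 and 9.57 to 10.74 and 11.12, and Insig1 2.12-fold, from 9.30 and 9.70 to 10.64 and 10.53. Smaller rises were called for Fdft1 (0.50 ± 0.15), Cyp51 (0.47 ± 0.16), Pmvk (0.33 ± 0.10) and Srebf2 (0.32 ± 0.10). Each of these 4 calls was lost with spike-in centring and without either unstimulated Tpl2-deficient array, those of Fdft1 and Cyp51 also without LPS-treated replicate 2 and that of Cyp51 without either unstimulated wild-type array. Mvk and Ebp fell (-0.37 ± 0.12 and -0.31 ± 0.10), calls lost without either unstimulated deficient array, and for Mvk without either LPS-treated one. Hmgcs1 (0.11 ± 0.13), Sc5d (0.01 ± 0.13) and Hsd17b7 (0.08 ± 0.12), which rose in wild type, did not pass here.

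Calls in the same direction in both genotypes numbered 12, which is 63.2% of the 19 members called in wild type and 75% of the 16 called in Tpl2-deficient cells. Over all genes these shares were 66.3% of wild-type calls and 82.9% of Tpl2-deficient calls. Of all 18193 genes, 34.6% were called the same way in both. The 3 members that rose in both were Idi1, Cyp51 and Insig1. Pmvk was the 1 member called in opposite directions, falling in wild type and rising in Tpl2-deficient cells. Passing in 1 genotype alone does not show that the genotypes differ, and the difference of the LPS changes was therefore tested itself.

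That difference asks whether Tpl2 alters the LPS response of these genes. Pmvk, Mvd, Ebp and Dhcr7 passed, 4 of 26 members, each with a change that was more positive without Tpl2; 8.59% of all genes passed, 5.72% upward and 2.87% downward. With LPS, Dhcr7 changed by -2.25 in wild type and by -1.52 in Tpl2-deficient cells, a difference of 0.73 ± 0.15 (adjusted p = 0.0119). For Ebp the changes were -0.85 and -0.31, with a difference of 0.54 ± 0.13 (adjusted p = 0.0326). Mvd changed by -1.16 in wild type and by -0.37, which did not pass, in Tpl2-deficient cells, a difference of 0.79 ± 0.21 (adjusted p = 0.0452). The Pmvk difference was 0.60 ± 0.14 (adjusted p = 0.0238). Of the members' 60 probe sets tested on their own, 3 passed as more positive without Tpl2 and 1 as more negative.

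These 4 differences stayed above 0 in each alternative, but 0 of 26 members passed with spike-in centring, 2 with quantile normalization repeated (1 more positive and 1 more negative), 0 without wild-type unstimulated replicate 1 or Tpl2-deficient unstimulated replicate 2, and 1 without wild-type unstimulated replicate 2, Tpl2-deficient unstimulated replicate 1 or either wild-type LPS array. Leaving out LPS-treated Tpl2-deficient replicate 2 gave 9, of which 5 were negative, and leaving out replicate 1 gave 6, all positive. Sc5d, which rose in wild type (0.58 ± 0.13) and read 0.01 ± 0.13 in Tpl2-deficient cells, did not pass, with a difference of -0.57 whose 95% interval ran from -0.96 to -0.18 before adjustment (adjusted p = 0.0758). For Nceh1 the interval ran from -0.01 to 0.91, and for Npc1 from -0.55 to 0.35.

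The comparison under LPS asks which members differ between the genotypes in stimulated cells, using the same LPS-treated arrays as above. The late reductase Dhcr7 and the late isomerase Ebp were higher in Tpl2-deficient cells, and Sqle and Sc5d were lower. These 4 of 26 members passed (2 higher, 2 lower), where 13.7% of all genes did, 8.01% higher and 5.73% lower. Dhcr7 was at 7.84 and 7.79 in Tpl2-deficient against 7.15 and 7.26 in wild-type arrays, 1.52-fold higher (adjusted p = 0.00259). Ebp was at 10.32 and 10.23 against 9.86 and 9.84, 1.34-fold higher (adjusted p = 0.0121). The genotypes did not overlap for either gene, and the Dhcr7 call held in 21 alternatives, the exception being a 2-fold minimum; the Ebp call was lost without either wild-type LPS array.

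Sqle was at 8.53 and 9.25 in Tpl2-deficient against 9.69 and 9.55 in wild-type arrays (-0.73 ± 0.19, adjusted p = 0.0239). Both deficient arrays were lower, the second by far less; without LPS-treated Tpl2-deficient replicate 1 the difference was -0.37 and did not pass, and the call was also lost without either wild-type LPS array. Sc5d was at 9.40 and 9.76 against 10.34 and 10.25, 1.65-fold lower (adjusted p = 0.00278). Just short of the threshold were Scap (-0.47 ± 0.15, adjusted p = 0.0571), Hsd17b7 (-0.38 ± 0.12, adjusted p = 0.0596), Hmgcs1 (-0.41 ± 0.13, adjusted p = 0.0606) and Cyp51 (-0.51 ± 0.16, adjusted p = 0.0661), and, in the other direction, Nceh1 (0.45 ± 0.15, adjusted p = 0.0701). Without LPS-treated Tpl2-deficient replicate 2 the difference was -0.80 for Cyp51, -0.72 for Scap and 0.20 for Nceh1. Without its replicate 1 these were -0.22, -0.22 and 0.70. The number of members passing moved with the array left out, as did that of all genes (given below). With quantile normalization repeated, 2 members were higher and 4 lower, against 1440 and 1066 of all 18193 genes. For Idi1 the difference was 0.03 with a 95% interval of -0.27 to 0.32, and for Npc2 -0.06 with an interval of -0.27 to 0.14.

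**Figure D4:**
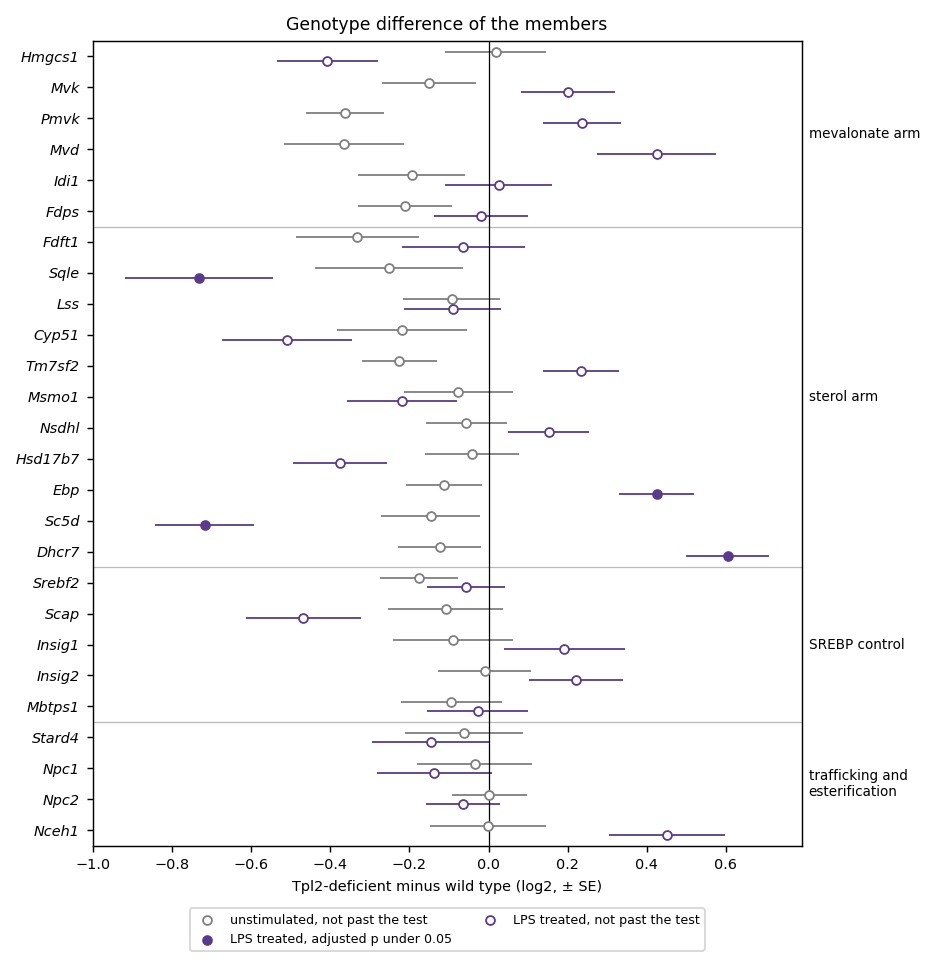
Difference between genotypes (log2, Tpl2-deficient minus wild type, ± SE from limma, 2 arrays per group) of the 26 measured members without LPS (grey) and with LPS (purple); filled points passed the adjusted threshold of 0.05. Filled points are Dhcr7 and Ebp on the right and Sqle and Sc5d on the left, all with LPS, and the grey points lie between -0.37 and 0.02.

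At rest, the question is whether Tpl2 deficiency alters these genes before stimulation. No member passed limma's test: 0 of 26 at the adjusted threshold, and 3 (Pmvk, Mvd and Tm7sf2) at an unadjusted p under 0.05. Among all 18193 genes 0.500% passed the adjusted threshold and 2445 had an unadjusted p under 0.05. With array weights Pmvk passed. The differences ran from -0.37 (Mvd) to 0.02 (Hmgcs1), with a median of -0.11 against -0.00 for all genes. Pmvk was at 8.71 and 8.75 in Tpl2-deficient against 9.03 and 9.16 in wild-type arrays, without overlap, a difference of -0.36 ± 0.10 (adjusted p = 0.17). As deposited, 24 of 26 differences were below 0; with spike-in centring 14 were, with quantile normalization repeated 18, and with each array centred on its median 26. Of all 18193 genes, 9262 were below 0 as deposited. Nceh1 and Npc2 differed by -0.00 and 0.00, with 95% intervals of -0.33 to 0.32 and -0.20 to 0.21.

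Most members are read by several probe sets, and for some these moved differently. The 26 members have 60 probe sets, and 18 members have more than 1. Tested on their own, 18 probe sets were raised and 21 lowered by LPS in wild-type cells (47.7% of all single-symbol probe sets passed), and 15 rose and 17 fell in Tpl2-deficient cells (39.0%). Stard4, a carrier of cholesterol between membranes, was called in both directions in both genotypes. Its brightest probe set, 1429240_at, fell by 0.77 ± 0.15 in wild type and by 0.86 ± 0.15 in Tpl2-deficient cells, and 1455011_at fell by 0.59 ± 0.12 in each. Probe set 1429239_a_at rose instead, from 7.59 and 7.86 to 8.31 and 8.15 in wild type (0.51 ± 0.13) and from 7.54 and 7.53 to 7.80 and 8.04 in Tpl2-deficient arrays (0.39 ± 0.13). The direction of the Stard4 change therefore depends on the probe set. None of its 3 probe sets passed between the genotypes.

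Sc5d was the other member called both ways, in wild-type cells. Probe set 1451457_at, used for the gene, and 1424709_at rose (0.58 ± 0.13 and 0.36 ± 0.14), and 1434520_at fell, from 7.73 and 7.67 to 6.33 and 6.26. The signal of 1424709_at, and the group means of 1434520_at after LPS in both genotypes, lay under the array medians, so differences read from them are uncertain in size. Under LPS the 1434520_at signal was 5.71 and 6.89 in Tpl2-deficient arrays, a genotype difference of 0.01 ± 0.27; for 1424709_at the difference was -0.34 ± 0.14 and did not pass. For Lss, 1426913_at fell by 2.07 in wild type where the probe set used fell by 0.50, and 1420014_at changed by -0.01. The 3 probe sets of Nceh1 all fell in both genotypes, with changes between -1.51 and -2.72. Of Srebf2's 2 probe sets, the dimmer 1426744_at rose in both genotypes (0.58 ± 0.13 and 0.59 ± 0.13). Both Idi1 probe sets rose in both genotypes, and 4 of the 5 Hmgcs1 probe sets rose in wild type. Which transcripts the probe sets read was not analysed here.

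**Figure D5:**
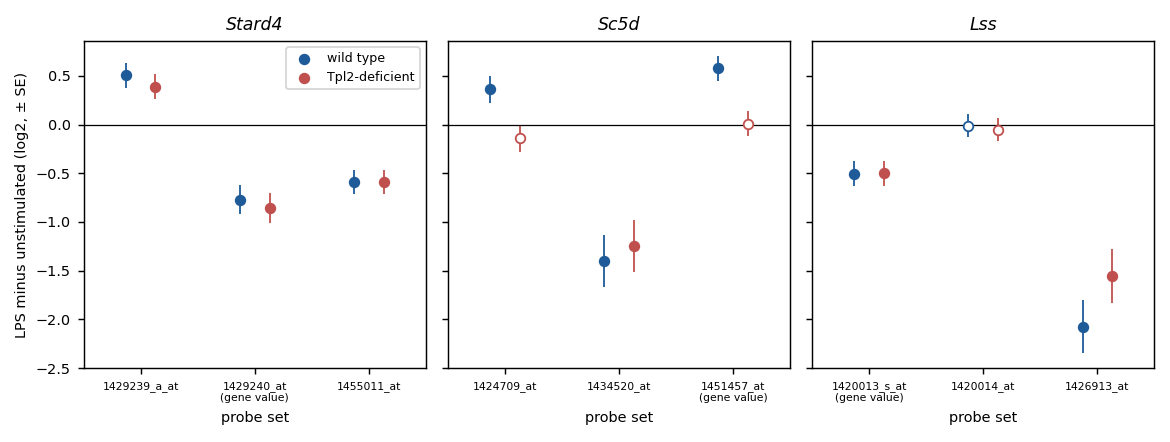
LPS change (log2, ± SE) of each probe set of Stard4, Sc5d and Lss in wild-type (blue) and Tpl2-deficient (red) macrophages; filled points passed the adjusted threshold over all probe sets, and the probe set used as the gene's value is marked. For Stard4 1 probe set lies above 0 and 2 below, for Sc5d 1434520_at lies below -1 in both genotypes, and for Lss the changes run from near 0 to below -2.

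Related genes that are not members were read from 3 lists. Of 10 measured genes of other sterol and SREBP steps, LPS raised 2 and lowered 5 in wild type, and raised 4 and lowered 5 in Tpl2-deficient cells. Among all genes 21.3% rose and 30.9% fell in wild type, and 16.0% and 25.8% in Tpl2-deficient cells. Lipa, the lysosomal acid lipase that frees cholesterol from esters, fell 2.34-fold and 2.10-fold. The sterol carriers Stard5 and Stard3 rose 2.70- and 2.09-fold in wild type and 1.90- and 2.04-fold without Tpl2. Mylip, a ubiquitin ligase for lipoprotein receptors, fell by 1.90 in wild type and rose by 0.41 in Tpl2-deficient cells, a difference of 2.30 ± 0.15 (adjusted p = 6.62e-06). It was 5.48-fold higher in LPS-treated Tpl2-deficient than wild-type arrays, where the SREBP gene Srebf1 and Stard5 were lower (-0.46 ± 0.11 and -0.51 ± 0.10).

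Of 12 genes of the fatty acid arm of SREBP signalling, 0 rose, 9 fell and 3 did not pass in wild type, and 0 rose, 7 fell and 5 did not pass in Tpl2-deficient cells, where 30.9% and 25.8% of all genes fell. The list's medians were -0.59 and -0.56. The fatty acid desaturase Fads1 fell 8.16-fold and 6.57-fold, the desaturase Scd2 at least 8.49-fold and at least 8.45-fold (its LPS level is under the array median), and the synthase Fasn 2.11-fold and 1.82-fold. Elovl5, an elongase, was the 1 gene of this list that differed between the genotypes under LPS, 1.33-fold higher without Tpl2.

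Of 9 oxysterol and efflux genes, 3 rose and 4 fell in wild type and 3 rose and 3 fell without Tpl2. Either way, 52.2% and 41.8% of all genes passed in these 2 comparisons. Ch25h, which makes the oxysterol that binds INSIG proteins, rose at least 133-fold in wild type and at least 22.7-fold in Tpl2-deficient cells, the unstimulated levels being under the array median. Under LPS it was at 13.46 ± 0.07 in wild-type and 10.70 ± 0.27 in Tpl2-deficient arrays (SD, n = 2), 6.78-fold lower without Tpl2 (adjusted p = 2.91e-07, limma). The oxysterol-forming Cyp27a1 and the exporter Abcg1 were 2.44- and 1.70-fold higher there. The exporter Abca1 (-0.58 ± 0.11) and the oxysterol receptor gene Nr1h3 (-0.73 ± 0.11) were lower. At rest 0 genes of these 3 lists passed limma's test, and 2, both on the oxysterol and efflux list, had an unadjusted p under 0.05.

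Promoter sequences were examined for letters the expression data did not use. RefSeq promoter windows (assembly GRCm38.p6, 250 bases before to 50 after a start) were matched by symbol for 21 of the 26 measured members, the others being Fdps, Fdft1, Sqle, Stard4 and Npc1. Both strands were searched for TCACNCCAC, the core of the sterol response element bound by SREBP, for CCAAT, the box bound by NF-Y, and for GGGCGG, the GC box bound by Sp1. CCAAT was found for 19 of 21 members and for 42% of the 14453 array genes in the table. GGGCGG was found for 19 of 21 members and for 57.3% of array genes. Counting each window singly, 37.4% and 35.7% of all 32851 windows held them. All 6 members that rose with LPS in wild type held both; of 10 that fell and had a window, 9 held CCAAT and 8 GGGCGG. TCACNCCAC was found for Hmgcs1 alone, and for 1.46% of array genes (1.24% of windows). A match describes letters in a window, not a binding site.

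The 250 bases before the start are shown for 3 members that rose with LPS in wild type (Hmgcs1, Idi1, Insig1) and 2 that fell in both genotypes (Dhcr7, Nceh1), 5′ to 3′ on the gene's strand, with the 3 motifs in capitals on either strand (ATTGG is CCAAT and CCGCCC is GGGCGG read on the other strand). They lie at chr13:119690101-119690350, chr13:8885356-8885605, chr5:28071162-28071411, chr7:143822917-143823166 and chr3:27182754-27183003, all on the plus strand; Dhcr7 has 3 starts in the table and the first is shown.
Hmgcs1: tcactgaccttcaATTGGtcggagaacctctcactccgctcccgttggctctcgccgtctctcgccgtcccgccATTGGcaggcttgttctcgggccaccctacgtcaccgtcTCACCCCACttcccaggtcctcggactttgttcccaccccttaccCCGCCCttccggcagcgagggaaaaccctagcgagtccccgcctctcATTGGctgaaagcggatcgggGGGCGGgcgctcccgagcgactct
Idi1: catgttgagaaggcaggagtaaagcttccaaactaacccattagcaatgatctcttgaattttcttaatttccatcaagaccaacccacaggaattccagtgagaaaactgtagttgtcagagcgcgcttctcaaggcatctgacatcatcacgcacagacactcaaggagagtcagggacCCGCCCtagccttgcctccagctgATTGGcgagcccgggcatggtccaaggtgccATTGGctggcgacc
Insig1: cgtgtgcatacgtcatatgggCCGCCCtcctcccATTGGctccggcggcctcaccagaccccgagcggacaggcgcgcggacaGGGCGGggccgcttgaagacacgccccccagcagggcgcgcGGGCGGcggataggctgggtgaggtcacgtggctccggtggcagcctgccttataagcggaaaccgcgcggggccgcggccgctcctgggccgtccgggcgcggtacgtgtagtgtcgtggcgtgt
Dhcr7: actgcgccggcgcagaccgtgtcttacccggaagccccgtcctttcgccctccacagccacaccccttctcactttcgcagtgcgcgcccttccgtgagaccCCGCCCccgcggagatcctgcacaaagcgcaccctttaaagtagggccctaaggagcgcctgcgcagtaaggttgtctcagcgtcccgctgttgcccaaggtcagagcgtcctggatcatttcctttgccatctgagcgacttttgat
Nceh1: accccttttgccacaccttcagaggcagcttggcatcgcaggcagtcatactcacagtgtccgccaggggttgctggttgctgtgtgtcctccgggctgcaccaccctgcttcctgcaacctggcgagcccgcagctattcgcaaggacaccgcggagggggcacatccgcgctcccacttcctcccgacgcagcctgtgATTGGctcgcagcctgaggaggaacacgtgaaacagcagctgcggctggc
Hmgcs1 shows 1 TCACNCCAC match, 3 CCAAT boxes and 2 GC boxes, Idi1 2 CCAAT boxes and 1 GC box, and Insig1 1 and 3. In the stretch shown for Dhcr7 there are 0 CCAAT boxes and 1 GC box, and for Nceh1 1 and 0. Both the genes that rose and those that fell thus carry such letters.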

How the data were processed

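Total RNA of 8 samples was labelled with biotin and hybridised to Affymetrix arrays. The deposited values are log2 signals of 45101 probe sets; per the submitters' processing notes they come from GCOS and RMA, without versions or a chip definition file. No further normalization or filter on low values was applied. Probe sets with exactly 1 symbol in the array's annotation table (34945) gave 18193 genes, each represented by its brightest probe set (highest mean signal).

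The 5 comparisons used limma 3.58.1 (R 4.3.3; two-sided, 4 group means, no covariate, 4 residual and 6.87 prior degrees of freedom), with Benjamini-Hochberg adjustment over all genes. The method was run on simulated arrays for each comparison except the difference of LPS changes. Those arrays had the same spread in every group, unlike the LPS-treated Tpl2-deficient arrays here. Replicates are labelled biological, with no animals named, so p-values measure the spread between these samples. Where a group mean lies under the array median, a fold is written with "at least".

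The members, lists, alternatives and the naming rule (all members, Map3k8, and up to 4 passing genes per list and direction) were chosen with earlier results of these data known. Alternatives were other probe set choices, scalings, variance models, filters, array subsets and a replicate block.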

Additional observations from a re-analysis of the deposited data

Results flagged for a closer look

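The difference between the genotypes' LPS changes passed the test for 4 members, each more positive in Tpl2-deficient cells (limma, log2 scale). It was 0.599 for Pmvk, 0.79 for Mvd, 0.538 for Ebp and 0.729 for Dhcr7. Among all genes 8.59% passed, 5.72% more positive and 2.87% more negative. Of the 4 members' calls, 0 were kept in every alternative. Groups of 2 arrays are too small for a search for single outlying arrays.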

How the results depend on the processing

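Leaving aside single probe sets and a 2-fold minimum, which are given below, 12 of 19 members' calls for LPS in wild type, 10 of 16 for LPS in Tpl2-deficient cells and 1 of 4 between genotypes under LPS (Dhcr7) were kept in every other alternative; 0 of 4 differences of the LPS changes were. In the order of wild-type LPS, Tpl2-deficient LPS, rest, LPS-treated genotypes and difference of changes, the fits above called 19, 16, 0, 4 and 4 members. Leaving out 1 array gave 15 to 22, 10 to 17, 0, 2 to 9 and 0 to 9. A 2-fold minimum gave 5, 6, 0, 0 and 0. Between LPS-treated genotypes, genes above the median level gave 9 and a mean-variance trend 8. Array weights gave 1 at rest. For the difference of changes, repeated quantile normalization gave 2 and spike-in centring 0. The cause of these moves was not tested, save that the 2-fold minimum can only remove calls. A replicate block gave 18, 16, 0, 5 and 4; the numbers pair nothing by the labels, and deviations of same-numbered arrays correlated at -0.12 to 0.1. With numbers crossed in LPS-treated Tpl2-deficient arrays, added after seeing the data because their correlation with the unstimulated ones was -0.12, counts were 20, 17, 0, 6 and 4.

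Directions turned with the probe set. For Sc5d the mean of all probe sets gave -0.15 in wild type and -0.46 in Tpl2-deficient cells with LPS, and 1434520_at gave -1.40, -1.24 and, between LPS-treated genotypes, 0.00545. Stard4 1429239_a_at gave 0.51 in wild type and 0.39 in Tpl2-deficient cells. In Tpl2-deficient cells with LPS, Mvk 1430619_a_at gave 0.16, Insig2 1417982_at 0.41 and Mbtps1 1431386_s_at 0.068. Over all genes, calls at rest moved from 91 to 531 with array weights, 140 with a mean-variance trend, 48 with only the 4 arrays compared and 23 to 40 without 1 unstimulated array; between LPS-treated genotypes from 2500 to 1580 with array weights and to 1387 or 1356 without a wild-type LPS array; and for the difference of changes from 1563 to 1022 with spike-in centring and, leaving out 1 array, 756 to 2565.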
